A study of Mus musculus with 8 samples.

Results

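Retinal astrocyte genes and the PDGF-A pathway were examined in whole retina of mouse pups that did or did not carry an Edn2 transgene. The 8 genes were Pdgfa, Pdgfra, S100b, Aldh1l1, Slc14a1, Gja1, Fabp7 and Nr2e1, and each probe set annotated with exactly one of these symbols was kept, which gave 20 of the 34945 probe sets with 1 gene symbol and 8 of the 18193 genes on the array. Retinas were taken at postnatal day 8 from mice of mixed background, mainly C57BL/6 and 129. Z/Edn2 pups carried the Z/Edn2 allele together with Six3-Cre, Control pups carried Six3-Cre alone, and each of the 4 arrays per group measured a pool of retinas from 2 to 3 pups. Both groups thus share the Six3-Cre driver, which acts in the developing neural retina. Genotype was read from LacZ activity in tail clips.

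As background, retinal astrocytes are not born in the retina. They enter it from the optic nerve head around birth and spread over its inner surface as a network that growing vessels follow. Ganglion cells secrete PDGF-A, the dimeric growth factor encoded by Pdgfa, and astrocytes and their precursors carry its receptor tyrosine kinase, encoded by Pdgfra, through which PDGF-A drives their division and migration. The remaining genes mark glia at different stages: Nr2e1 and Fabp7 belong to neural progenitors and immature glia, while S100b, Aldh1l1, Slc14a1 and Gja1 are used as markers of more mature astrocytes and several are also made by Mueller glia.

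Array medians lay between 6.14 and 6.28 in log2 signal, with Z/Edn2 3 the highest. The retinal label was matched by high signal of Rax (10.1 to 10.4), Pax6 (10.8 to 11.1) and Rlbp1 (10.9 to 11.7), genes of retinal cells, in the 8 arrays. Gfap, the intermediate filament of astrocytes, was measured at 6.03 to 6.91, with the highest values in Control 1 (6.59) and Z/Edn2 1 (6.91). Its log2 fold change, Z/Edn2 minus Control, was 0.17 ± 0.188 (SE). The Z/Edn2 array was the higher in 4 of 4 same-numbered pairs, and the groups overlapped. The Edn2 probe set stood at 3.87 to 4.12 in Control and 4.00 to 4.28 in Z/Edn2, and whether it lies within the transgene's transcript is not given in the sources used here. The arrays of replicate 1 in both groups had the smallest difference between the 3′ and 5′ probe sets for actin, 0.65 in Control 1 and 0.56 in Z/Edn2 1 against 1.06 to 1.42 in the other 6 arrays (log2). The number of arrays limits the precision of every value below.

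The receptor, Pdgfra, and the astrocyte enzymes and transporters Aldh1l1 and Slc14a1 lay above Control in Z/Edn2 retina on 5 probe sets, and the log2 fold changes of the ligand Pdgfa were 0.0039 and 0.0094. Slc14a1 was 1.60-fold and Aldh1l1 1.37-fold higher by their brightest probe sets, Pdgfra 1.40-fold and, on a dimmer probe set, 1.79-fold. None of these passed the test: with limma, fitted to all 34945 probe sets with Benjamini-Hochberg adjustment and a threshold of 0.05, 0 of the 20 member probe sets were called. Across the array 0.0887% of probe sets were called higher and 0.0258% lower. In whole retina, a difference in the number of cells of a type and a difference in RNA per cell cannot be told apart.

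**Figure D1:**
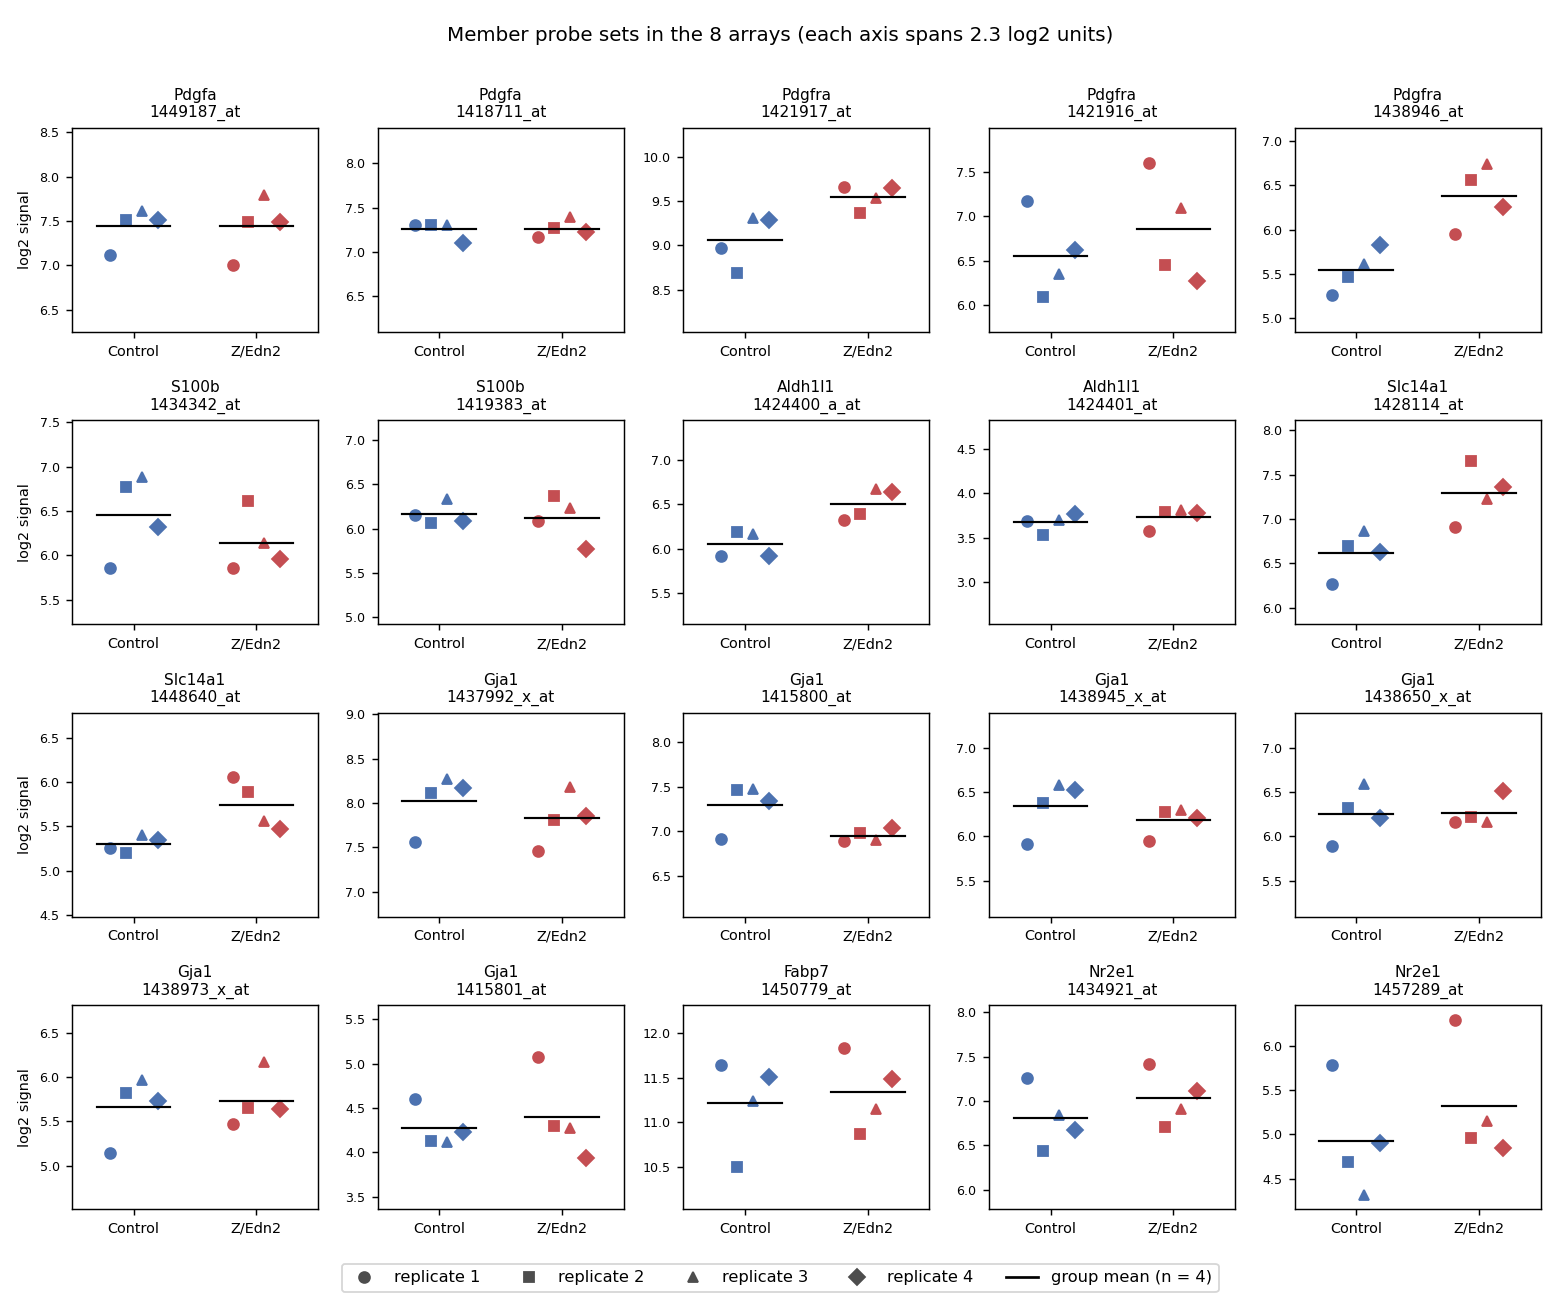
Log2 signal of each of the 20 member probe sets in the 4 Control (blue) and 4 Z/Edn2 (red) arrays; the marker shape gives the replicate number and the black line the group mean. The groups separate for 5 probe sets, of Pdgfra, Aldh1l1 and Slc14a1, and overlap for the others.

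Counted without a threshold on the adjusted p, 5 of the 20 member probe sets had all 4 Z/Edn2 values above all 4 Control values, or 25%, against 2.32% of all probe sets. These 5 belonged to 3 genes, and probe sets of one gene are not independent. Among them Pdgfra 1438946_at and Slc14a1 1448640_at had mean log2 signals of 5.96 and 5.52, below the dim filter of 6 used further on. In the other direction 0 member probe sets separated, against 0.813% of all. An unadjusted limma p under 0.05 was reached by the same 5 in the higher direction, where the share over all probe sets was 2.84%, and by 1 in the lower direction (all probe sets 1.2%). The median log2 fold change of the 20 was 0.093, against 0.018 over all probe sets tested. Positive values numbered 15 and negative ones 5.

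**Figure D2:**
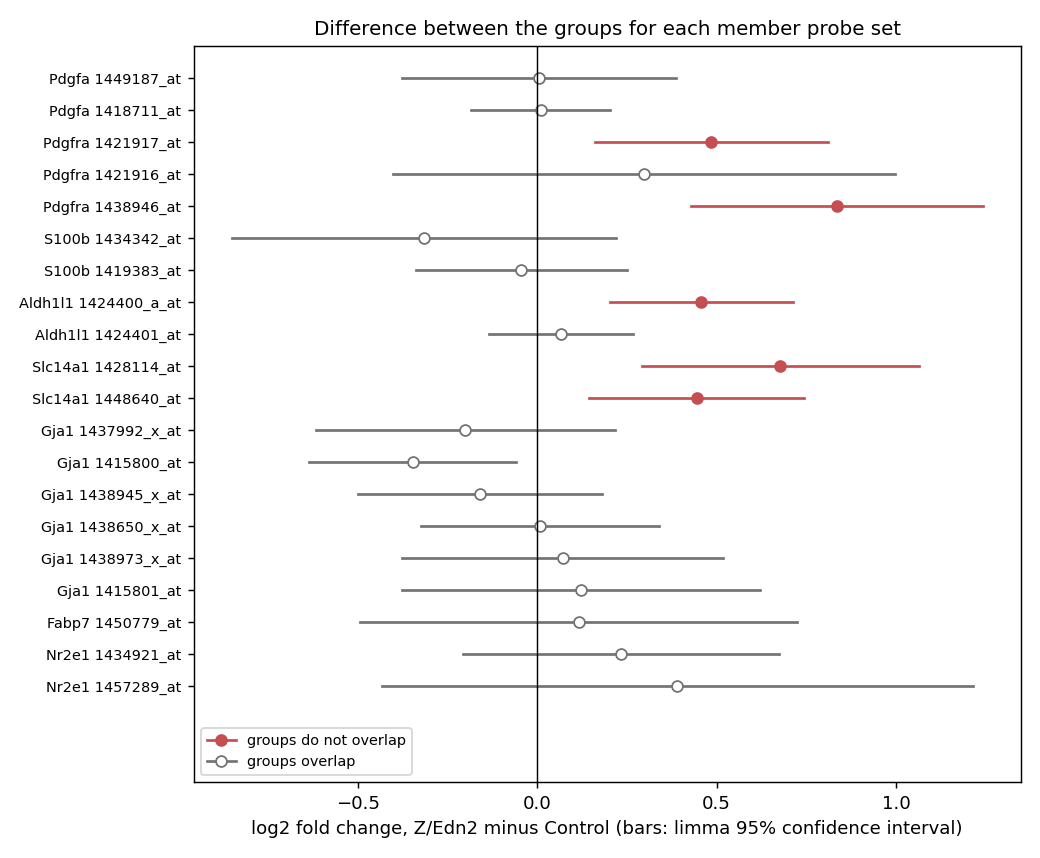
Log2 fold change, Z/Edn2 minus Control, of each member probe set with limma's 95% confidence interval; filled red points have no overlap between the groups. The 5 red intervals lie above 0 and that of Gja1 1415800_at below it, while the other 14 include 0; the intervals are not adjusted for the number of probe sets.

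Pdgfa, the ligand, had 2 probe sets. On 1449187_at the Control arrays read 7.12, 7.51, 7.61 and 7.51 and the Z/Edn2 arrays 7.002, 7.48, 7.80 and 7.49, in the order of the replicate numbers. The array of replicate 1 was the lowest of each group, and the groups covered each other. The log2 fold change was 0.0039 ± 0.170 (SE), with a 95% confidence interval from −0.38 to 0.39. On 1418711_at the values were 7.31, 7.30, 7.30 and 7.11 in Control and 7.17, 7.27, 7.40 and 7.23 in Z/Edn2, and the log2 fold change was 0.0094 ± 0.0864, with an interval from −0.18 to 0.20. Both directions turned when single arrays were left out, so that no direction can be given for Pdgfa. Ganglion cells are a source of PDGF-A, but which cells gave the Pdgfa signal in whole retina was not measured. The ganglion cell marker list had lower values in Z/Edn2: of 11 measured genes 11 had negative log2 fold changes, with a median of −0.34. The list mean per array was 9.59 to 9.83 in Control and 9.04 to 9.37 in Z/Edn2. None of these 11 passed the test. Nefm, a neurofilament protein, was at −0.65 on the log2 scale (limma adjusted p = 0.206) and Thy1, a surface glycoprotein, −0.80 (0.562), while Sncg, gamma-synuclein, was at −0.46 (0.612).

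The receptor had 3 probe sets, all higher on average in Z/Edn2. On 1438946_at Pdgfra read 5.26, 5.46, 5.62 and 5.82 in Control and 5.95, 6.57, 6.74 and 6.26 in Z/Edn2. Every Z/Edn2 array lay above every Control array, and the Z/Edn2 member of each same-numbered pair was the higher by 0.43 to 1.12. The means were 5.54 ± 0.240 and 6.38 ± 0.349 (SD, n = 4 pools each), a log2 fold change of 0.84 ± 0.181 (SE; limma adjusted p = 0.345, exact permutation p = 0.0286, the smallest that 4 against 4 arrays can give). With the replicate number as a block the adjusted p was 0.0619, the lowest of any member probe set in that fit. On 1421917_at, the brightest, Pdgfra read 8.97, 8.69, 9.31 and 9.29 in Control and 9.66, 9.37, 9.53 and 9.64 in Z/Edn2. The groups were again separate, but by little, since the highest Control value of 9.31 and the lowest Z/Edn2 value of 9.37 were near each other. The difference of 0.49 ± 0.145 (SE) on the log2 scale missed the threshold (limma adjusted p = 0.906). The third probe set, 1421916_at, read 7.17, 6.09, 6.35 and 6.61 in Control and 7.60, 6.45, 7.09 and 6.27 in Z/Edn2. Here the groups overlapped, the replicate 1 arrays were the highest of both groups, and the difference was 0.30 ± 0.312 (SE). It was 0.049 without Z/Edn2 1, 0.14 without Control 2, 0.49 without Z/Edn2 4 and 0.50 without Control 1, and 0.0086 without Control 1, Z/Edn2 1 and Z/Edn2 3 together.

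Pdgfra also marks oligodendrocyte precursors and fibroblasts, whose other genes were therefore set beside it. Of 9 oligodendrocyte lineage genes 9 lay above 0 (median log2 fold change 0.071), and the list mean per array was 5.96 to 6.04 in Control and 6.06 to 6.18 in Z/Edn2. Olig1 and Olig2, the lineage's transcription factors, were at 0.30 and 0.21, and 0 of the 9 passed the test. Both were dim, with Control and Z/Edn2 means of 4.46 and 4.76 for Olig1 and 5.05 and 5.25 for Olig2. Mog was dimmer still, at 2.60 and 2.79, while Cnp, the brightest of the list, was at 10.07 and 10.08 with a log2 fold change of 0.0089. Of 7 fibroblast and meningeal genes 4 were positive and 3 negative, with a median of 0.099 and array means of 5.32 to 5.58 in Control and 5.53 to 5.97 in Z/Edn2. Mgp, a matrix protein that binds calcium, had the widest difference of that list, 0.87 ± 0.159 (SE; limma adjusted p = 0.169), with no overlap of the groups, and Col1a1, a fibrillar collagen chain, was at 0.49 (1.00 by the same test). The part of these cells in the Pdgfra values was not tested.

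By the smallest root mean square difference over the 8 arrays, after subtraction of each gene's Control mean, the genes most like Pdgfra 1421917_at among 18192 others were Zic5, at 0.120 log2 units, Angpt2, at 0.136, and Pdlim1, at 0.161. Their own log2 fold changes were 0.48, 0.40 and 0.44. The genes most like Pdgfa 1449187_at were Tmem254a, Rfc1 and Atxn7l1, at 0.0468 to 0.0593 log2 units, with log2 fold changes of 0.030, 0.041 and 0.013. These likenesses describe the 8 arrays and were not tested.

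The promoter windows of the ligand, the receptor and the enzyme Aldh1l1 are printed because genes of the hypoxia response, described further on, rose in the same arrays and these windows can be searched for that pathway's element. Windows of 300 bases, from 250 before to 50 after an annotated start, were read from RefSeq (build GRCm38.p6) for 7 of the 8 genes. Both strands were searched for the core of the hypoxia response element, ACGTG or GCGTG, for the GC box GGGCGG, for CCAAT and for TATAAA, and capitals mark every match. The windows shown are chr5:138994895-138995194 on the minus strand for Pdgfa, chr5:75152001-75152300 on the plus strand for Pdgfra and chr6:90550543-90550842 on the plus strand for Aldh1l1.
Pdgfa: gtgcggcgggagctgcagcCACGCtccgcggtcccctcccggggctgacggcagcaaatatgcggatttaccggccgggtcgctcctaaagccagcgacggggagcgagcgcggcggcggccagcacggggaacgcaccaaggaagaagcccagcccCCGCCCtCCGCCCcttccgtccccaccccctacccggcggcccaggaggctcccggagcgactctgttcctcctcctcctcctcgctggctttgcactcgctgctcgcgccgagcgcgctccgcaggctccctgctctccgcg
Pdgfra: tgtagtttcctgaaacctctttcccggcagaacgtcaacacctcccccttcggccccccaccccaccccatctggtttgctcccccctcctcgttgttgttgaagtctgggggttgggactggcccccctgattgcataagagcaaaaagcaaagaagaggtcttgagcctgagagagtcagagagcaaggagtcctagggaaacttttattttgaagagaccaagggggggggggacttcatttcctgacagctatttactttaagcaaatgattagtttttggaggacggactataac
Aldh1l1: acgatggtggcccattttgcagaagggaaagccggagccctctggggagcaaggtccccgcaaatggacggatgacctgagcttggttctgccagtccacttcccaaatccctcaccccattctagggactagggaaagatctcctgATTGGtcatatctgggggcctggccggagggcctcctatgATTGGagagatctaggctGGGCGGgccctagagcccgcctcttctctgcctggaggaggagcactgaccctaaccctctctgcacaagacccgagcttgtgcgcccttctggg

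The Pdgfa window held 1 hypoxia core match, at −231 relative to the start, and 2 GC boxes, and its bases were 73.3% G or C. A second annotated Pdgfa start had 1 GC box and no hypoxia core. The Pdgfra window held none of the 4 motifs, at 51.0% G or C. The Aldh1l1 window held a GC box and 2 CCAAT boxes and no hypoxia core. Among the other members the hypoxia core occurred in the Gja1 window. Of all 32851 windows 43.8% held the hypoxia core, 35.7% a GC box, 37.4% a CCAAT box and 13.6% TATAAA. A match of so few letters describes the sequence and is not a site, and the Slc14a1 window is not shown.

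Slc14a1, which encodes the urea transporter UT-B, separated the groups on both of its probe sets. On 1428114_at the Control arrays read 6.27, 6.70, 6.86 and 6.63 and the Z/Edn2 arrays 6.92, 7.66, 7.23 and 7.36. The lowest Z/Edn2 array, that of replicate 1, lay just above the highest Control array. The means were 6.61 ± 0.250 and 7.29 ± 0.308 (SD, n = 4 pools each), and the log2 fold change was 0.68 ± 0.171 (SE; limma adjusted p = 0.594). With the replicate block the adjusted p was 0.0630. It passed only when the block was combined with 1 probe set per gene, at 0.0318, a fit that called 0.39% of genes higher and was chosen after the data were seen. Over the other alternatives its adjusted p reached from 0.0630 to 1.00. On 1448640_at Slc14a1 read 5.25, 5.20, 5.40 and 5.34 in Control and 6.06, 5.89, 5.56 and 5.47 in Z/Edn2. All 4 Z/Edn2 arrays were above Control, with those of replicates 3 and 4 close to it. The log2 fold change was 0.44 ± 0.134 (SE; adjusted p = 0.935).

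Aldh1l1, a folate enzyme whose promoter is widely used to label astrocytes, had 1 probe set that separated the groups and 1 that did not. On 1424400_a_at it read 5.92, 6.19, 6.16 and 5.92 in Control and 6.32, 6.39, 6.68 and 6.64 in Z/Edn2. The Z/Edn2 values were all above the Control values. The log2 fold change was 0.46 ± 0.114 (SE; limma adjusted p = 0.592), and blocking on replicate number gave an adjusted p of 0.221. The other probe set, 1424401_at, lay between 3.53 and 3.81 in all arrays, with a difference of 0.065 ± 0.0894. As the mean of both probe sets the log2 fold change of Aldh1l1 was 0.26, so its size depends on which probe set is read. With a mean log2 signal of 3.70, below the dim filter of 6, 1424401_at may be too dim to show a difference.

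Gja1 and S100b, by contrast, stood at or below the Control level on their brightest probe sets. Gja1 encodes the connexin of the gap junctions that couple astrocytes, and had 6 probe sets, 4 of them with the suffix x_at that the manufacturer gives where probes can match other transcripts. On 1415800_at Gja1 read 6.91, 7.46, 7.48 and 7.34 in Control and 6.89, 6.98, 6.90 and 7.03 in Z/Edn2. The Z/Edn2 arrays lay close together, and only the Control array of replicate 1 was as low. The log2 fold change was −0.35 ± 0.128 (SE), the single member probe set with an unadjusted p under 0.05 in the lower direction (p = 0.0229, limma adjusted p = 1.00, exact permutation p = 0.0857). The brightest, 1437992_x_at, had a log2 fold change of −0.20 (−0.36 without Control 1 and −0.079 without Z/Edn2 1), with Control at 7.56 to 8.27 and Z/Edn2 at 7.46 to 8.18, and the other 4 probe sets of Gja1 ranged from −0.16 to 0.12 with overlapping groups. Its probe sets thus did not share a direction. Those that were negative, 1437992_x_at, 1415800_at and 1438945_x_at, stayed negative in every alternative run. The positive ones, 1438650_x_at, 1438973_x_at and 1415801_at, turned in 7, 5 and 2 runs. Of these, 1438973_x_at and 1415801_at had mean log2 signals of 5.70 and 4.33, below the dim filter of 6.

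S100b, a calcium-binding protein of mature astrocytes, was read by 2 probe sets. On 1434342_at the Control values were 5.86, 6.77, 6.89 and 6.32 and the Z/Edn2 values 5.86, 6.61, 6.13 and 5.96. In none of the 4 pairs was the Z/Edn2 array the higher, but the groups overlapped widely. The log2 fold change was −0.32 ± 0.239 (SE; 95% interval from −0.85 to 0.22), or −0.52 without Control 1 and −0.17 without Control 3. On 1419383_at S100b lay at 6.06 to 6.34 in Control and 5.77 to 6.37 in Z/Edn2, a difference of −0.044 ± 0.132 whose direction was positive once Control 3, Z/Edn2 4 or the replicate 4 pair was left out.

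On the 3 probe sets of the progenitor and immature glial genes, both replicate 1 arrays were above the other 6. Fabp7, the brain fatty acid binding protein, had 1 probe set, 1450779_at, which read 11.64, 10.50, 11.24 and 11.51 in Control and 11.84, 10.86, 11.15 and 11.49 in Z/Edn2. Same-numbered arrays differed by at most 0.37, while the means of the 4 pairs spanned 1.06. Replicate 2 was the lowest of each group, and Control 1 at 11.64 was near Control 4 at 11.51. The log2 fold change of Fabp7 between the groups was 0.12 ± 0.271 (SE). Nr2e1, the orphan nuclear receptor Tlx, read 7.26, 6.44, 6.84 and 6.67 in Control and 7.42, 6.70, 6.91 and 7.12 in Z/Edn2 on 1434921_at. The Z/Edn2 array was the higher in 4 of 4 pairs, by 0.061 to 0.45, but the groups overlapped. On average they differed by 0.23 ± 0.196 (SE, log2), or 0.10 without Z/Edn2 1, 0.11 without Control 2 and 0.39 without Control 1, and the pair means spanned 0.77. On 1457289_at Nr2e1 read 5.78, 4.69, 4.32 and 4.90 in Control and 6.29, 4.96, 5.15 and 4.85 in Z/Edn2, again with replicate 1 the highest of both groups, and the difference was 0.39 ± 0.367. It was 0.065 without Z/Edn2 1, 0.19 without Control 3 and 0.68 without Control 1.

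**Figure D3:**
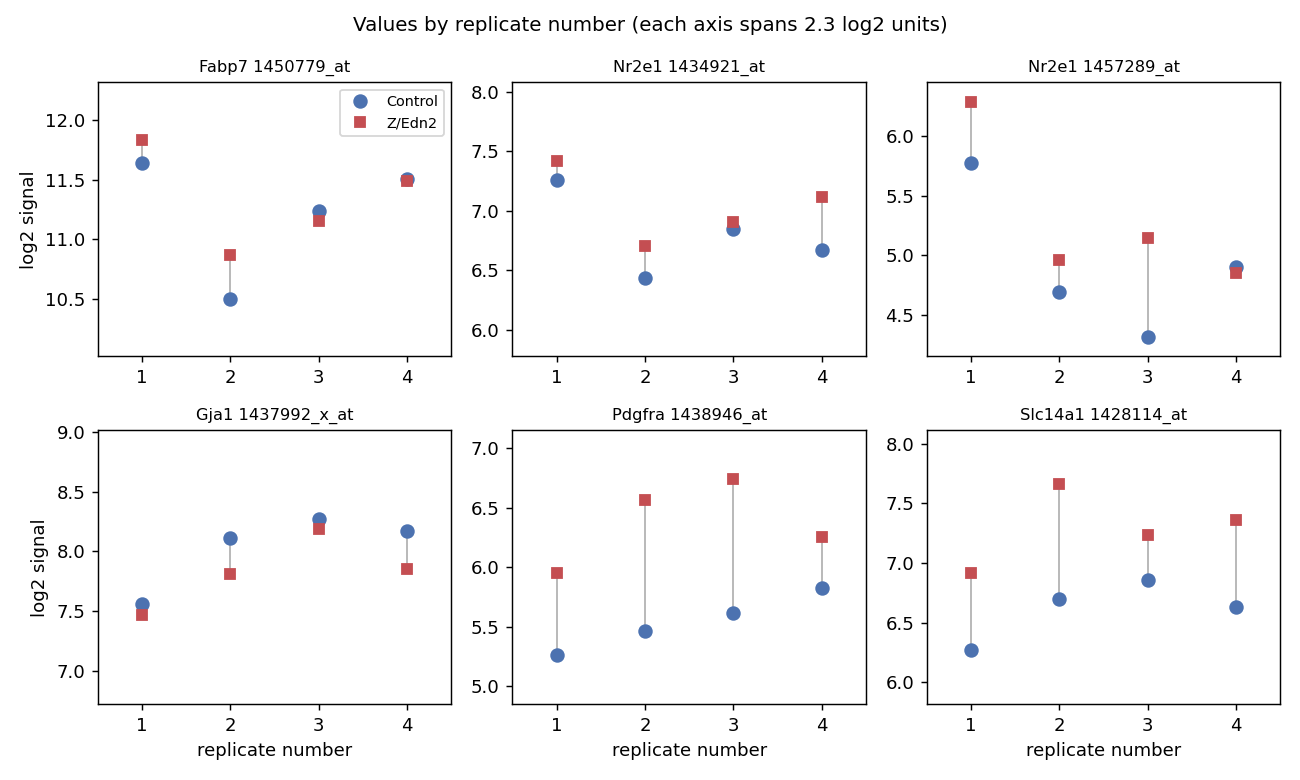
Log2 signal against replicate number for 6 member probe sets, with Control as blue circles and Z/Edn2 as red squares joined by a grey line within each number. For Fabp7 and Nr2e1 both arrays of replicate 1 lie above the other 6, and for Gja1 1437992_x_at below them. In the Fabp7 panel replicate 2 is the lowest of each group. For Pdgfra 1438946_at and Slc14a1 1428114_at the red square is above the blue circle in 4 of 4 pairs.

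The replicate 1 arrays also stood apart on other member probe sets. On 5 of the 20 member probe sets (25%) both replicate 1 arrays lay above the other 6 arrays, and on 6 (30%) below them, where the shares over all probe sets were 15.3% and 16.5%. The 5 above were both Nr2e1 probe sets, Fabp7, Pdgfra 1421916_at and Gja1 1415801_at. The 6 below were Pdgfa 1449187_at, S100b 1434342_at and the 4 x_at probe sets of Gja1. Probe sets of the same gene are not independent, so these shares rest on fewer genes than probe sets. The same 2 arrays carried the low actin difference given above, and its part in these values was not tested.

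The other genes of PDGF signalling were read from their gene lists. Of 5 further ligands and receptors 0 passed the test, 2 had positive and 3 negative log2 fold changes, with a median of −0.034. Pdgfd, a ligand of the beta receptor, read 5.74 to 6.15 in Control and 4.97 to 5.75 in Z/Edn2 on its brightest probe set, a log2 fold change of −0.49 ± 0.163 (SE; limma adjusted p = 1.00). All 4 pairs were lower in Z/Edn2, and its other 2 probe sets were at −0.18 and 0.0066. Pdgfb, the endothelial ligand that recruits pericytes, was at 0.047 on its brightest probe set and 0.25 on the other. Pdgfrb, its receptor on pericytes, was at 0.11 on its brightest probe set and −0.025 on the other. Pdgfc, another ligand of the alpha receptor, was at −0.034 and 0.028 in the same order, and Pdgfrl, a receptor-like protein, at −0.12. Of 18 measured signal transducers downstream of the receptor 0 passed, 7 were positive and 11 negative, and the median was −0.028. Map2k1, a kinase of the MAP kinase cascade, had the smallest p of these, with a log2 fold change of 0.23, and the docking protein Gab1 was at 0.12. Of 16 genes that receptor tyrosine kinases induce, 15 were positive and 1 negative with a median of 0.13, yet 0 passed and 1 had an unadjusted p under 0.05. Spry4, a feedback inhibitor of these kinases, was at 0.27 ± 0.118 (SE), Egr2, an immediate early factor, at 0.24, Etv4, an Ets factor, at 0.19, and Spred1, another inhibitor, at 0.16 (limma adjusted p = 1.00 for each). Proliferation genes had a median of 0.050 over 11 genes, with 10 positive, 1 negative and 0 past the test. Their list mean per array was 6.41 to 6.83 in Control and 6.44 to 7.03 in Z/Edn2.

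**Figure D4:**
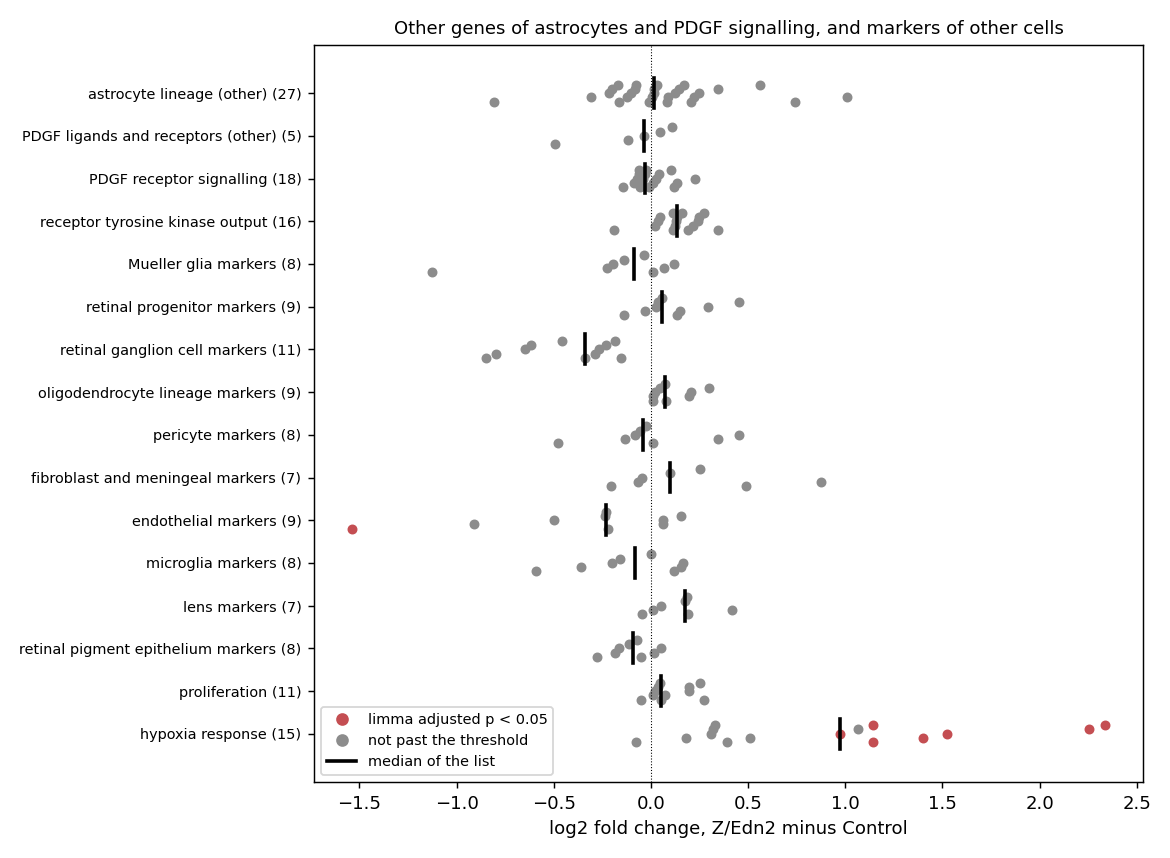
Log2 fold change, Z/Edn2 minus Control, of each measured gene (1 point, its brightest probe set) in 16 gene lists, with the number of genes in brackets and the list's median as a black bar. Red points passed limma's threshold: 7 genes of the hypoxia response above 0 and Tek, of the endothelial list, below it.

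Of 27 further astrocyte lineage genes 16 were positive and 11 negative, with a median of 0.017, next to 0.018 over all probe sets, and 0 passed the test. With the replicate block 2 of the 27 were called higher, Sox9 and Igfbp5, where 0.217% of all probe sets were called higher in that fit. The 27 were read on 1 probe set a gene, and a blocked fit of 1 probe set a gene called 0.39% of genes higher. Sox9, a glial transcription factor, read 7.11 to 7.41 in Control and 7.66 to 8.001 in Z/Edn2, a log2 fold change of 0.56 ± 0.108 (SE; limma adjusted p = 0.206, or 0.0460 with the block). Igfbp5, a binding protein of insulin-like growth factors, read 7.90 to 8.88 in Control and 8.90 to 9.57 in Z/Edn2, a log2 fold change of 0.74 (0.878, or 0.0257 with the block). Id3, an inhibitor of helix-loop-helix factors, was lower without overlap, at −0.31 ± 0.0785 (adjusted p = 0.608). Fn1, the fibronectin that astrocytes lay down under vessels, was at 1.01 ± 0.283, but its groups overlapped, with Z/Edn2 values from 9.19 to 10.7 and Control values up to 9.24 (adjusted p = 0.779).

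Mueller glia share several of the member genes, and their 8 measured markers had a median of −0.087, with 3 positive and 5 negative. The list mean per array was 9.77 to 10.2 in Control and 9.62 to 9.85 in Z/Edn2. None passed, while with the block Abca8a, a lipid transporter, was lower at −1.13 (adjusted p = 0.0421), in a fit that called 0.0515% of all probe sets lower. Retinal progenitor genes, beside Fabp7 and Nr2e1, had a median of 0.056 over 9 genes, of which 7 were positive and 0 passed, and array means of 8.63 to 8.94 in Control and 8.70 to 9.08 in Z/Edn2. Sfrp2, a Wnt inhibitor of the ciliary margin, was at 0.45 and Pax6, the eye field factor, at −0.14.

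Genes of the hypoxia response and of vessels were read in the same arrays. Of 15 hypoxia response genes 7 rose and 0 fell, where 0.0887% and 0.0258% of all probe sets were called in these directions. The list was written with earlier results of these data known, so its count is no independent support. It counts genes on their brightest probe sets, while the shares are over all probe sets. The median log2 fold change was 0.97, and the list mean was 8.56 to 8.68 in Control and 9.49 to 9.64 in Z/Edn2. Vegfa, the vessel growth factor that retinal astrocytes secrete, rose by 0.97 ± 0.133 (SE; limma adjusted p = 0.0402), with Control at 9.33 to 9.61 and Z/Edn2 at 10.1 to 10.7. The remaining 6 were Adm (2.26), Ndufa4l2 (2.34), Bnip3 (1.40), Pfkfb3 (1.14), Pdk1 (1.14) and Egln3 (1.53, log2 fold change for each). With each of the 8 arrays left out in turn, Adm, Ndufa4l2 and Bnip3 passed in 8 of 8 fits, Pfkfb3 in 6, Pdk1 in 2, and Vegfa and Egln3 in 1 each. Of the 7 hypoxia genes 3 still passed without Control 2 or without Z/Edn2 4, and 4 without Control 4 or without Z/Edn2 2. Vegfa had log2 fold changes of 0.89 to 1.08 over these fits. Of 9 endothelial markers Tek, the angiopoietin receptor, fell by 1.54 on the log2 scale (limma adjusted p = 0.00418) and passed in 8 of 8 such fits. Its probe set was dim, with means of 5.66 in Control and 4.12 in Z/Edn2, below the dim filter of 6. The median of the 9 markers was −0.23. Pericyte markers had a median of −0.042 over 8 genes, with 3 positive, 5 negative and 0 past the test.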

How the data were processed

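Total RNA of pooled retinas was labelled with biotin (3′ IVT Express kit) and hybridised to Affymetrix arrays. The values deposited by the authors are log2 signals of probe sets from RMA, per the submitters' processing notes (version not given in the sources used here), and were used without further scaling. The authors' deposited comparison adds log2 fold changes, a score (fold change with a sign) and p-values without adjustment, whose test is not named in the file headers.

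Of 45101 probe sets, 64 controls, 932 with several symbols and 9160 with none were left out, and 34945 (18193 genes) were fitted with limma 3.58.1 in R 4.3.3 (lmFit, eBayes, two-sided, Benjamini-Hochberg over all, threshold 0.05). List genes were read on the probe set with the highest mean. Arrays with the same number correlated across probe sets, after removal of group means, at 0.80, 0.43, 0.18 and 0.31, each above 0.1, so a blocked fit (replicate number as a factor) was run too. Control 3 correlated better with Z/Edn2 4 (0.41) and Z/Edn2 2 (0.19) than with its own number, and what the number marks is not given in the sources used here. Of the 16 gene lists 176 of 190 entries had a probe set. Named genes were all members, all other PDGF ligands and receptors, called list genes and otherwise up to 4 per list with the smallest p. Edn2, Gfap, Rax, Pax6 and Rlbp1 were given as checks of the labels, outside this rule. Pdgfa and Pdgfra were also given the 3 genes with the most similar profile. The members, lists and tests were chosen with earlier results of these data known. Symbols were checked in RefSeq (GRCm38.p6), where all 20 member probe sets matched. Coordinates are given only for the promoter windows, on the RefSeq build, since no build was named for the arrays. P-values measure the spread between 8 pools.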

Additional observations from a re-analysis of the deposited data

Results flagged for a closer look

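Of 40 sets of 4 arrays (20 member probe sets in 2 groups), 3 held a value far from the other 3, and chance alone gives about 1 in 20. Control 4 read 7.11 on Pdgfa 1418711_at, where the other Control arrays lay at 7.30 to 7.31. Z/Edn2 1 read 3.57 on Aldh1l1 1424401_at against 3.78 to 3.81 in the other Z/Edn2 arrays. Z/Edn2 4 read 6.51 on Gja1 1438650_x_at against 6.16 to 6.21 in the others of its group. None of these probe sets separated the genotypes.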

How the results depend on the processing

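Of the 20 member probe sets 13 kept their direction in every alternative run and 7 did not. The count of member probe sets past the threshold stayed at 0 under the replicate block, trend and robust eBayes, array weights, the dim filter (mean log2 signal of at least 6, which 14 of the 20 passed), all probe sets, 1 probe set a gene, gene means, median scaling and every omission of arrays. It was 1 when 1 probe set a gene was combined with the replicate block (Slc14a1), which was added after seeing the data. The block changed no other member call. With array weights Pdgfa 1449187_at turned to −0.033 and Gja1 1438973_x_at to −0.061. With array medians removed Pdgfa was at −0.024 and −0.018 (1449187_at, 1418711_at) and Gja1 1438650_x_at at −0.019. Without Control 1, Z/Edn2 1 and Z/Edn2 3, Pdgfa 1449187_at was at −0.060, and Gja1 at −0.010, −0.19 and −0.048 (1438650_x_at, 1438973_x_at, 1415801_at). Leaving out arrays or same-numbered pairs gave −0.11 to 0.15 for Pdgfa 1449187_at and −0.040 to 0.059 for 1418711_at. The range was −0.16 to 0.070 for S100b 1419383_at and −0.13 to 0.27 for Fabp7. For Gja1 it was −0.11 to 0.15, −0.10 to 0.17 and −0.11 to 0.27 (1438650_x_at, 1438973_x_at, 1415801_at). The cause of these turns was not tested. The count of list genes past the threshold was 8 in the main fit, 13 with the block and 4 to 7 when single arrays were left out. It was 4 without Control 2 or Z/Edn2 4 and 5 without Control 4 or Z/Edn2 2. Without Z/Edn2 1 it was 7, of which 6 were among the 8 of the main fit.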

Other observations

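Marker lists of cells outside the neural and glial lineages were read in the same way. Of 8 microglia markers 3 had positive and 5 negative log2 fold changes, with a median of −0.080 and 0 past the test. P2ry12, a purine receptor of resting microglia, was at −0.59 ± 0.175 (SE; limma adjusted p = 0.889), with no overlap between the groups, and Csf1r, the receptor they need for survival, at −0.36. Of 7 lens genes 6 were positive, with a median of 0.17 and 0 past the test, and Crygd, a lens crystallin, was at 0.42 ± 0.354. Of 8 genes of the retinal pigment epithelium 6 were negative, with a median of −0.092 and 0 past the test. Ttr, transthyretin, was at −0.28 and Pmel, a melanosome protein, at −0.18.

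In the authors' deposited table the unadjusted p was 0.00753 for Pdgfra 1438946_at, 0.0236 for Pdgfra 1421917_at, 0.00749 for Aldh1l1 1424400_a_at, 0.0142 for Slc14a1 1428114_at and 0.0225 for Slc14a1 1448640_at.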
